A study of Mus musculus with 36 samples.

Results

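MicroRNAs of the liver were compared between the HFLF and the LF diet group of male C57BL/6 mice. Of the 36 small RNA libraries of the study, 11 enter this comparison: the 6 HFLF livers (replicates 1 to 6) and 5 of the 6 LF livers (replicates 1, 2, 3, 5 and 6). They are the libraries of these groups that the authors kept in their own table of liver log2 values, which lacks LF replicate 4. All mice were wild-type F1 males, 24 weeks old, which ate chow up to week 6 of life. For the time after that the labels give a diet duration of 18 weeks. The diet tag is HFLFD for the HFLF group and LFD for the LF group, but the treatment protocol names LFD for every sample. Whether a group name describes what the mouse ate or what its father ate cannot be read from the labels. The letters that tie table columns to the groups were read from the abbreviations alone, and the letter for liver from the tables deposited per tissue. Only the sample titles speak of replicates, so the spread behind each p-value is that between these libraries and may be technical.

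A microRNA (miRNA) is a short RNA cut from a hairpin precursor, whose 5′ and 3′ arms can each give a mature strand. Loaded into an Argonaute protein, the mature strand represses messenger RNAs, which it finds mainly through its seed, the bases from position 2 to position 8. miRNAs that share a seed share many predicted targets. In liver, miR-122 of hepatocytes is by far the most abundant miRNA, and miR-107, miR-103, miR-802 and the let-7 family are known from work on insulin signalling and glucose handling. The mature sequences below are those of the miRNAs that the comparison turns on, grouped by seed, from RefSeq on GRCm38.p6, 5′ to 3′, with the seed in capitals.
miR-107-3p: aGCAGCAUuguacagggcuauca
miR-103-3p: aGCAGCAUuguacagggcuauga
miR-146a-5p: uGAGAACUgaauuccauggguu
miR-146b-5p: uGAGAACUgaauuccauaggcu
miR-17-5p: cAAAGUGCuuacagugcagguag
miR-20a-5p: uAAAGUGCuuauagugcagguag
let-7e-5p: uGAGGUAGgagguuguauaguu
let-7a-5p: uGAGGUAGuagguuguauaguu
let-7i-5p: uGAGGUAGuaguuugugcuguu
miR-99b-5p: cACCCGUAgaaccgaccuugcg
miR-125a-5p: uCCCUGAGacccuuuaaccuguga
miR-30e-3p: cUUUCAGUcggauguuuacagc
miR-30e-5p: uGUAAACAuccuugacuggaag
miR-28a-5p: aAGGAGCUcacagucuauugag
miR-802-5p: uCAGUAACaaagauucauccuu

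No liver miRNA passed the test between HFLF and LF. Of 1966 mature miRNAs named in the count table, 979 had no count in any of the 11 libraries and 554 had too few counts to be tested. The rest were tested and held 99.989% of all counts. edgeR's quasi-likelihood test called 0 of them (0%) at a Benjamini-Hochberg adjusted p under 0.05, with a smallest adjusted p of 0.485. At an unadjusted p under 0.05 it counted 32 (7.39%), of which 22 (5.08%) lay higher and 10 (2.31%) lower in HFLF. DESeq2 also called 0 and counted 40 at that unadjusted threshold, and limma-voom called 0 and counted 46. Without HFLF replicate 4 or without HFLF replicate 6 the count was 18, and with LF replicate 4 added it was 17 of 413. The split of the 32 depended on the scaling: with DESeq2's size factors in edgeR it was 15 higher and 17 lower, and with total counts alone 28 higher and 5 lower. Fold changes below therefore carry no call, and an adjusted p between 0.485 and 0.562 stands behind each of the 20 leading miRNAs named here, the 10 with the smallest p in each direction.

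How closely a difference could be bounded followed the level of the miRNA. Levels are given in TMM-scaled counts per 1000000 (CPM). Of the 122 miRNAs at 100 CPM or more, all but 15 had a 95% interval of the fold change that lay wholly within 1.5-fold either way, and 120 lay within 2-fold. Of the 101 miRNAs between 10 and 100 CPM, 51 had an interval within 1.5-fold, and of the 210 under 10 CPM only 2 did. The median standard error of the log2 fold change was 0.11, 0.20 and 0.57 in these 3 classes, from the highest to the lowest level. Over all tested miRNAs 222 (51.3%) had a fold change above 0, the median log2 fold change was 0.01, and the 5th and 95th percentiles were -0.91 and 0.69.

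**Figure D1:**
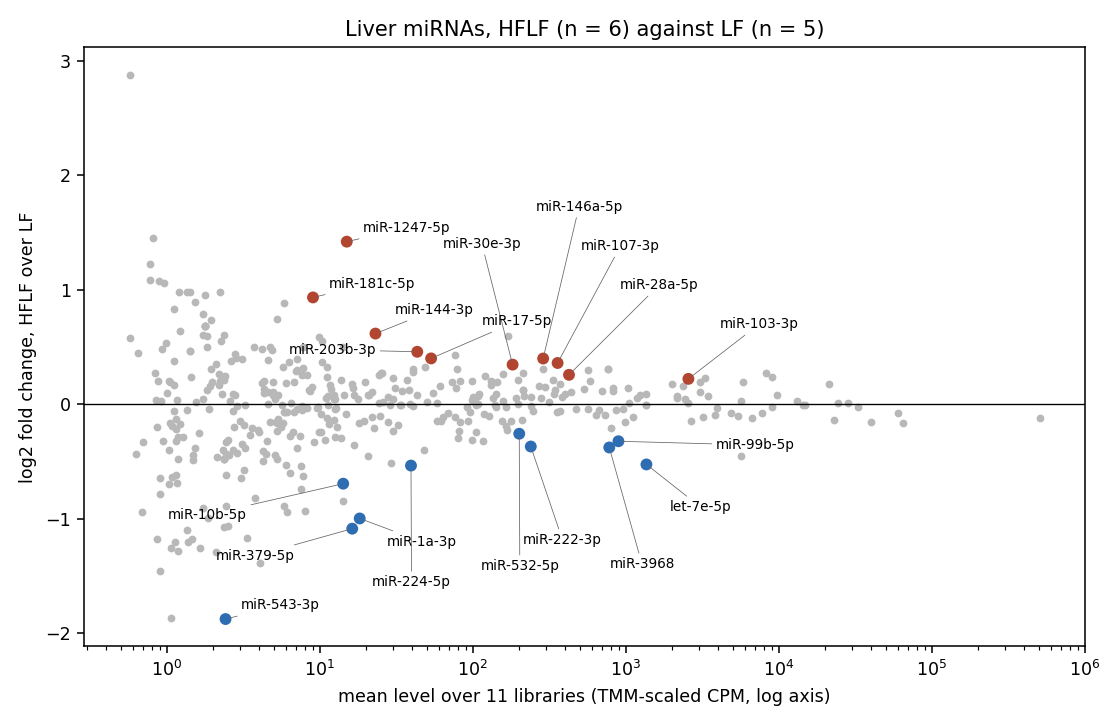
Log2 fold change (HFLF over LF) of the tested liver miRNAs against their mean level in TMM-scaled CPM on a log axis; coloured points are the 10 miRNAs with the smallest p in each direction, red where higher and blue where lower in HFLF. None passed the adjusted threshold, and the spread of the fold changes widens below 100 CPM.

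Sequencing depth overlapped between the groups. Libraries held 9198584 to 18152684 counts in HFLF and 7866583 to 15608292 in LF, and the means differed by 959682 counts (2-sided exact permutation test over 462 assignments, p = 0.632). HFLF livers had counts for 585 ± 31.6 miRNAs and LF livers for 594 ± 24.1 (SD, n = 6 and 5, exact permutation p = 0.587). The first principal component held 18.9% of the variance of log2 CPM and the scores of the groups overlapped on it. No pair of replicates agreed within sampling noise, the smallest chi-square per degree of freedom being 91.9. LF replicate 4, which is outside the comparison, had counts for 316 miRNAs.

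The defining miRNA of hepatocytes was the most abundant in both groups. miR-122-5p took 49.4% ± 3.50 of all counts in HFLF and 50.9% ± 2.70 in LF (SD, n = 6 and 5), a difference of -1.53 percentage points (exact permutation p = 0.431). Its fold change was -0.12 ± 0.12 (log2, standard error), with an interval from -0.37 to 0.14. It was followed by miR-21a-5p, let-7f-5p, let-7a-5p and let-7g-5p. Among the 15 most abundant miRNAs the log2 fold changes ran from -0.16 for miR-21a-5p to 0.23 for miR-194-5p, and all 15 intervals lay within 1.5-fold, with outermost bounds of -0.44 and 0.45. Markers of other cell types ranged from abundant to absent. The 10 mesenchymal miRNAs of stellate cells, fibroblasts and smooth muscle summed to 10816 to 20091 CPM in HFLF and 12868 to 18422 CPM in LF, and the 2 endothelial arms of miR-126a to 4312 to 5719 CPM in HFLF and 4621 to 5453 CPM in LF. The mesenchymal sum holds both miR-199a-3p and miR-199b-3p, which have the same sequence, so it may count reads more than once. Of 17 miRNAs of striated muscle 12 had no count in any library, and the 8 names of pancreatic miRNAs had 4 with no count.

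The pantothenate kinase miRNAs, miR-107 and miR-103, stood among the leading miRNAs on the higher side. Both lie in introns of pantothenate kinase genes, which start the synthesis of coenzyme A, and both are known to lower insulin sensitivity in mouse liver and fat. miR-107-3p (chr19:34820700-34820722, minus strand, intron of Pank1) measured 458, 377.5, 376.2, 362.6, 433.2 and 383 CPM in HFLF livers, against 300.3, 308, 248, 326 and 369.8 CPM in LF livers. All but 1 of the HFLF libraries lay above the highest LF library. The log2 fold change was 0.36 ± 0.11 (standard error, unadjusted p = 0.00336, edgeR adjusted p = 0.485).

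miR-103-3p comes from introns of Pank3 (chr11:35782447-35782469) and Pank2 (chr2:131288103-131288125). It measured 3007, 2614, 2615, 2353, 2864 and 2998 CPM in HFLF livers, against 2336, 2315, 2315, 2312 and 2477 CPM in LF livers. Here 5 of the 6 HFLF libraries lay above all LF libraries, and the LF values spanned a narrower range than the HFLF values. The log2 fold change was 0.22 ± 0.09 (edgeR adjusted p = 0.562). The sequences of miR-107-3p and miR-103-3p share a seed and differ near the 3′ end, and the sources used here do not say how the authors' counting divided reads between them. Summed over the shared seed GCAGCAU the level was 3099 ± 242 CPM in HFLF and 2702 ± 149 CPM in LF (SD, n = 6 and 5), with a log2 fold change of 0.20 ± 0.08 (edgeR over seed families, adjusted p = 0.577). The value of miR-107-3p rests on whether LF replicate 4 is among the controls. With any 1 of the 11 libraries left out, its log2 fold change stayed between 0.28 and 0.44. With LF replicate 4 among the controls its log2 fold change was -0.02. In CPM of plain total counts this library had 562 of miR-107-3p, against 221 to 358 in the other LF livers. It had counts for 316 miRNAs, against 563 to 624 in the other LF livers.

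miR-30e-3p was the 1 miRNA whose HFLF values all lay above all LF values. It is the 3p arm of a hairpin in an intron of Nfyc (chr4:120772618-120772639, minus strand), a gene for a subunit of the NF-Y transcription factor. It measured 177, 188, 191.8, 213, 211 and 228 CPM in HFLF livers, against 162, 151, 170.9, 150.5 and 159.6 CPM in LF livers. Its log2 fold change was 0.35 ± 0.10 (unadjusted p = 0.00324, edgeR adjusted p = 0.485). The 5p arm of the same hairpin, miR-30e-5p, averaged 3534 ± 435 CPM in HFLF and 3369.6 ± 345 CPM in LF, a log2 fold change of 0.07 ± 0.10. Groups that do not overlap were found for 2 of the tested miRNAs (0.462%), the other being let-7i-5p with all HFLF values below all LF values. Of the 462 assignments of the libraries to the groups, 2 keep the groups apart. A share close to 0.462% is therefore reached by chance alone.

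miR-146a-5p, a brake on Toll-like receptor signalling that is abundant in myeloid cells, had the smallest p on either side. It measured 327, 310.2, 278, 333, 330.5 and 365 CPM in HFLF livers, against 206.3, 288, 208.1, 294 and 232 CPM in LF livers. The lowest HFLF library lay below 2 of the LF libraries. Its log2 fold change was 0.40 ± 0.12 (unadjusted p = 0.00254, edgeR adjusted p = 0.485). miR-146b-5p, which has the same seed, averaged 74.8 ± 13.9 CPM in HFLF and 87.9 ± 9.59 CPM in LF and had a log2 fold change of the other sign, -0.23 ± 0.14. The miRNAs of macrophages and granulocytes were mixed: of 9 tested, miR-146a-5p and miR-146b-5p among them, 4 lay higher and 5 lower (5 and 4 with total counts alone), and miR-223-3p of granulocytes averaged 88.7 ± 18.7 CPM in HFLF and 110.2 ± 28.0 CPM in LF, a log2 fold change of -0.31 ± 0.17 (-0.17 without LF replicate 5).

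The rest of the leading miRNAs on the higher side were miR-28a-5p, miR-17-5p, miR-144-3p, miR-181c-5p, miR-1247-5p and miR-203b-3p. miR-28a-5p, from an intron of Lpp, averaged 459.5 ± 15.7 CPM in HFLF and 384 ± 41.5 CPM in LF (log2 fold change 0.26 ± 0.09). miR-17-5p, of the cluster that is known for driving proliferation, averaged 60.1 ± 9.80 CPM in HFLF and 45.5 ± 5.25 CPM in LF (0.40 ± 0.15). Its cluster neighbour and seed partner miR-20a-5p averaged 169.5 ± 22.7 CPM in HFLF and 141 ± 3.35 CPM in LF (0.26 ± 0.11). miR-92a-3p stood at -0.10 ± 0.10, but it comes both from the end of this cluster and from a locus on chromosome X. The larger fold changes belonged to scarce miRNAs: miR-181c-5p (0.93 ± 0.31), known in rat heart for acting inside mitochondria, averaged 11.5 CPM in HFLF and 6.04 CPM in LF. miR-1247-5p (1.42 ± 0.51), from an exon of the Dio3os RNA, measured 34.8, 12.1, 3.83, 32.5, 26.9 and 16.2 CPM in HFLF livers, against 5.94, 3.90, 6.55, 6.48 and 16.1 CPM in LF livers. HFLF replicate 3 had the lowest level of miR-1247-5p among the 11 libraries, and LF replicate 6 stood beside HFLF replicate 6. The interval of its fold change ran from 0.30 to 2.54. miR-203b-3p averaged 49.5 ± 12.3 CPM in HFLF and 36.03 ± 6.54 CPM in LF (0.46 ± 0.19).

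**Figure D2:**
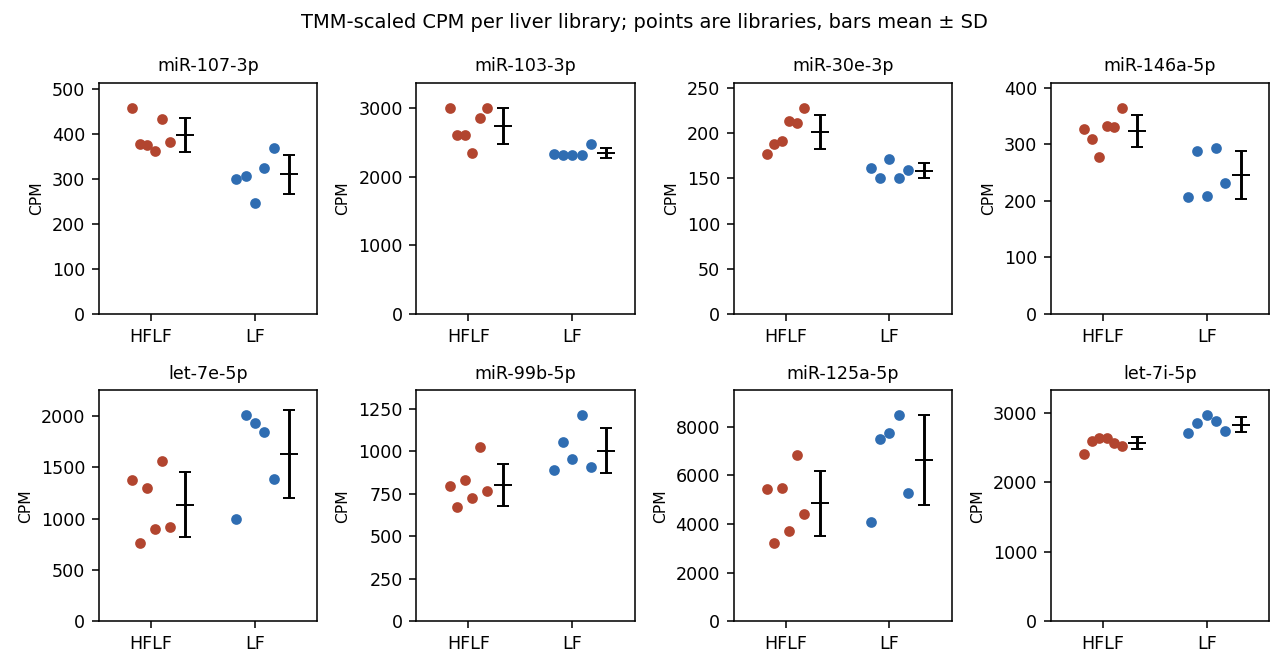
TMM-scaled CPM of 8 miRNAs in each HFLF and LF liver library; points are libraries and bars the mean ± SD (n = 6 HFLF, 5 LF). miR-30e-3p and let-7i-5p are the panels in which the groups do not overlap.

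On the lower side the 5p arms of 3 neighbours in a precursor cluster in Spaca6 stood together in the 11 libraries compared. miR-99b (chr17:17830194-17830215), let-7e (chr17:17830366-17830387) and miR-125a (chr17:17830817-17830840) are cut from the same strand of this gene within less than 1 kb. miR-99b-5p measured 799, 671, 831, 724, 1025 and 769.6 CPM in HFLF livers, against 894, 1054, 955, 1214 and 907 CPM in LF livers. Only HFLF replicate 5 reached the LF range, and the log2 fold change was -0.32 ± 0.11 (unadjusted p = 0.00859, edgeR adjusted p = 0.559).

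let-7e-5p measured 1375, 767, 1296, 903, 1564 and 915 CPM in HFLF livers, against 1001, 2011, 1933, 1845 and 1391 CPM in LF livers. miR-125a-5p measured 5423, 3196, 5489, 3720.1, 6839.8 and 4399.6 CPM in HFLF livers, against 4073, 7489, 7754, 8471 and 5284 CPM in LF livers. In both, HFLF replicate 2 was the lowest library and LF replicates 1 and 6 lay inside the HFLF range. The log2 fold changes were -0.53 ± 0.22 for let-7e-5p (edgeR adjusted p = 0.562) and -0.45 ± 0.22 for miR-125a-5p (unadjusted p = 0.062, edgeR adjusted p = 0.562). The scarce let-7e-3p of the same cluster had a log2 fold change of the other sign, 0.39 ± 0.39, and 0.13 without LF replicate 1. miR-125a-5p is a family member of miR-125b-5p, and summed over the seed CCCUGAG, which also holds miR-351-5p, the level was 8574.5 ± 1551 CPM in HFLF and 10891 ± 2204 CPM in LF (log2 fold change -0.35 ± 0.14, edgeR over seed families, adjusted p = 0.577). LF replicate 4, outside the comparison, split the cluster. In CPM of plain total counts it had 85.7 of miR-99b-5p, against 853 to 1279 in the other LF livers. It had 2106 of miR-125a-5p, against 4277 to 8926, but 2321 of let-7e-5p, against 1051 to 1944.

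The let-7 family is known to dampen insulin signalling in mice, and apart from let-7e-5p its members had fold changes near 0. None of the 9 tested 5p members had a fold change above 0 in the main fit, against 51.3% of all tested miRNAs. In other settings let-7g-5p stood at 0.05 when only total counts were used and at 0.003 in the authors' log2 table. It stood at 0.008 without HFLF replicate 2, and let-7b-5p at 0.04 without LF replicate 2 and at 0.02 without HFLF replicate 6. The median of the 9 members was -0.14 against 0.01 over all tested, and -0.42 with LF replicate 4 among the controls. The members other than let-7e-5p ran from -0.15 for miR-98-5p and let-7a-5p to -0.03 for let-7g-5p. let-7i-5p measured 2414, 2597, 2645, 2634, 2564 and 2521 CPM in HFLF livers, against 2715, 2851, 2968, 2888 and 2739.8 CPM in LF livers. Its groups did not overlap, but the difference was small, with a log2 fold change of -0.14 ± 0.08 (unadjusted p = 0.0803). The family sum over the seed GAGGUAG was 167761 ± 23482 CPM in HFLF and 184737 ± 21926 CPM in LF, a log2 fold change of -0.14 ± 0.11 (edgeR over seed families, unadjusted p = 0.203). The sum overlapped between the groups, as it ranged from 136000.6 to 207602 CPM in HFLF and from 154058 to 205196 CPM in LF over the 9 members. Of the 10 tested 3p arms of let-7 hairpins, 5 lay higher and 5 lower, but 6 and 4 with total counts alone.

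**Figure D3:**
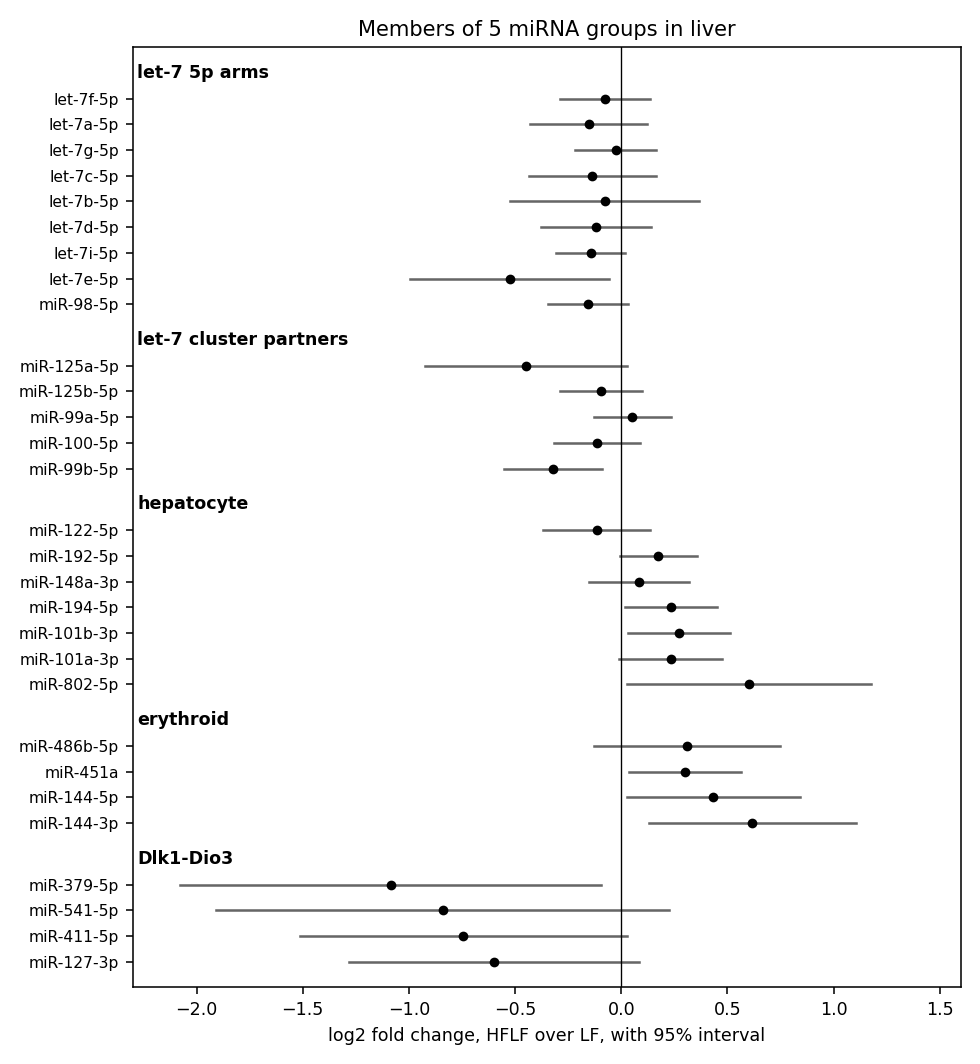
Log2 fold change (HFLF over LF) with its 95% interval for the named members of 5 groups of miRNAs; the vertical line marks no difference. All 9 let-7 5p arms lie left of the line (let-7g-5p right of it with total counts alone, and let-7b-5p or let-7g-5p in some other settings). The 4 erythroid members drawn lie right of it, while only few intervals leave out 0. Of all 7 erythroid miRNAs tested 1 lay lower, and of the 19 of Dlk1-Dio3 tested 2 lay higher, and these are not drawn.

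Hepatocyte and metabolic miRNAs lay mostly on the higher side, with small differences. Of 9 hepatocyte miRNAs, 7 lay higher and 2 lower in HFLF, none was called, and 3 had an unadjusted p under 0.05, against 51.3% above 0 and 7.39% under that p over all tested. The median was 0.18 against 0.01, while the sum of the list, most of it miR-122-5p, had a median of 540628 CPM in HFLF and 583572 CPM in LF. miR-194-5p averaged 9668 ± 1047 CPM in HFLF and 8215 ± 1134 CPM in LF (log2 fold change 0.23 ± 0.10), and its cluster partner on chromosome 19, miR-192-5p, averaged 22259.6 ± 1335 CPM in HFLF and 19714 ± 1632 CPM in LF (0.18 ± 0.09). miR-101b-3p averaged 8989.8 ± 1268 CPM in HFLF and 7447 ± 1258 CPM in LF (0.27 ± 0.12). miR-802-5p, which is raised in livers of obese mice and impairs glucose tolerance there, averaged 201 ± 56.8 CPM in HFLF and 132.7 ± 49.8 CPM in LF (0.60 ± 0.27). Of 16 tested regulators of lipid, glucose and insulin metabolism, 14 lay higher and 2 lower (10 and 6 with LF replicate 4 among the controls), 4 of the higher ones had an unadjusted p under 0.05, and the median was 0.19. They include miR-107-3p, miR-103-3p and miR-802-5p, so the lists share members. miR-29a-3p, a repressor of collagens, averaged 6182 ± 619 CPM in HFLF and 5409.7 ± 425 CPM in LF (0.19 ± 0.09), and its fold change was -0.07 with LF replicate 4 among the controls. miR-378a-3p, which is encoded in an intron of the coactivator gene Ppargc1b, averaged 2116 ± 102 CPM in HFLF and 1875 ± 163 CPM in LF (0.18 ± 0.09).

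miRNAs of blood and of other cells were read as markers of what the tissue held. In whole tissue, fewer cells of a type and less RNA per cell cannot be told apart. Of 7 erythroid miRNAs, 6 lay higher in HFLF, 3 of them at an unadjusted p under 0.05, against 51.3% above 0 and 7.39% under that p over all tested, with a median of 0.31. Their sum ranged from 1674 to 3019 CPM in HFLF and from 1477 to 2424 CPM in LF. miR-451a of red cells averaged 616 ± 123 CPM in HFLF and 501 ± 73.9 CPM in LF (log2 fold change 0.30 ± 0.13, and 0.18 without HFLF replicate 2), and its cluster neighbours miR-144-3p (0.62 ± 0.23) and miR-144-5p (0.43 ± 0.19, and 0.27 without HFLF replicate 4) also lay higher. The near-identical miR-486a and miR-486b share reads, so these 7 are not separate observations and their sum may count reads more than once. The part of blood content in other differences was not tested.

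The 4 lymphocyte miRNAs all lay lower (median -0.29), except for 1 of them with total counts alone or with LF replicate 4 among the controls, and their sum ranged from 135 to 215 CPM in HFLF and from 148 to 240 CPM in LF. Of the 10 mesenchymal miRNAs, 4 lay higher and 6 lower, but 8 higher and 2 lower with total counts alone. miR-199a-3p and miR-199b-3p, of the same sequence, had 182660 and 182007 counts over the 11 libraries, so these 10 are not separate observations. The endothelial arms of miR-126a split 1 and 1, but both lay higher with total counts alone and both lower with DESeq2's size factors. The miRNA of striated muscle that passed the filter, miR-1a-3p, averaged 12.6 ± 5.08 CPM in HFLF and 25.1 ± 14.1 CPM in LF (-0.997 ± 0.362), with LF replicates 2 and 5 at 40.3 and 40.8 CPM and the other LF livers at 13.1 to 16.4 CPM. Of 10 epithelial and bile duct miRNAs 8 lay higher (median 0.26), with miR-200b-3p at 0.18 ± 0.20. Of 3 tested neural miRNAs 2 lay higher, but 1 with LF replicate 4 among the controls, the pancreatic miR-375-3p lay higher, and of 15 miRNAs of the miR-17-92 cluster and its paralogs 9 lay higher (median 0.09), but 6 (median -0.07) with LF replicate 4 among the controls.

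Imprinted and rodent-specific clusters were the scarce end of the comparison. Of the listed miRNAs of the imprinted Dlk1-Dio3 region on chromosome 12, 61 had a count and 19 were tested. Of these 17 lay lower in HFLF, 2 at an unadjusted p under 0.05, with a median of -0.84 against 0.01 over all tested. Over all tested, 51.3% lay above 0, 7.39% were under that p, and 2.31% were under it and lower. miR-1247-5p, from an exon of the Dio3os RNA on chromosome 12, was outside this list and lay higher (1.42). The sum over the 19 tested members of the list had a median of 42.4 CPM in HFLF (38.0 to 95.6 CPM). In LF the median was 94.2 CPM, and the lowest library had 60.8 CPM. The sums overlapped, as HFLF replicates 2 and 3 had 95.6 and 83.6 CPM and LF replicates 5 and 6 had 60.8 and 66.1 CPM. LF replicates 1 and 3 were the highest, at 149.4 CPM or more. Without LF replicate 3 the log2 fold change of miR-541-5p moved from -0.84 to -0.56. That of miR-411-5p moved from -0.74 to -0.44. How many of the 19 lay lower without LF replicates 1 and 3 was not tested. miR-379-5p measured 4.78, 22.8, 11.9, 12.1, 4.48 and 8.71 CPM in HFLF livers, against 41.9, 19.1, 30.5, 11.7 and 11.4 CPM in LF livers (log2 fold change -1.09 ± 0.46). miR-543-3p averaged 1.10 ± 1.15 CPM in HFLF and 4.02 ± 3.18 CPM in LF (-1.87 ± 0.72). These members share a transcript and were high in the same livers, LF replicates 1 and 3 for both of them. Of 42 names of testis and epididymis miRNAs 31 had a count. The 12 tested all lay lower (median -0.49), against 51.3% above 0 over all tested. With total counts alone, or with LF replicate 4 among the controls (median then -0.81), 1 of them lay higher. The 12 hold 3 names for one miR-465 strand. The sum over the 12 was 64.6 CPM in LF replicate 5 and 19.2 to 39.6 CPM in the other LF livers, against 16.9 to 33.7 CPM in HFLF. From the same list, miR-871-3p averaged 4.20 ± 2.37 CPM in HFLF and 7.81 ± 5.12 CPM in LF. Its log2 fold change was -0.89, and -0.45 without LF replicate 5. Of 80 names of the Sfmbt2 intron cluster 42 had a count, and of the 12 tested 8 lay higher (median 0.47). With miR-122-5p left out of the scaling 16 were tested and the median was 0.13. The 12 names hold only 8 distinct sets of counts, as miR-466b-3p, miR-466c-3p, miR-466e-3p and miR-466p-3p have identical counts, and so do miR-669a-5p and miR-669p-5p.

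The other leading miRNAs on the lower side were miR-3968, miR-10b-5p, miR-224-5p, miR-222-3p and miR-532-5p. miR-3968 averaged 687 ± 131 CPM in HFLF and 892 ± 146 CPM in LF (log2 fold change -0.38 ± 0.13). miR-10b-5p, from the Hoxd cluster, averaged 11.2 ± 4.65 CPM in HFLF and 17.9 ± 4.22 CPM in LF (-0.69 ± 0.26). miR-224-5p, from an intron of Gabre, averaged 32.8 ± 9.44 CPM in HFLF and 47.6 ± 16.3 CPM in LF (-0.53 ± 0.22, and -0.33 without LF replicate 3), and miR-532-5p averaged 185 ± 23.3 CPM in HFLF and 221 ± 19.8 CPM in LF (-0.26 ± 0.11). miR-222-3p (-0.37 ± 0.16) measured 438 CPM in LF replicate 1 and 204 to 245 CPM in the other LF livers, against 192.2 to 245 CPM in HFLF, and without that library its fold change was -0.14. Its cluster neighbour miR-221-3p stood at -0.04 ± 0.11.

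Summing counts by seed gave no call either. Of 304 seed families, of which 62 joined at least 2 miRNAs with a count, edgeR called 0 (smallest adjusted p 0.577) and counted 23 (7.57%) at an unadjusted p under 0.05, 9 higher and 14 lower in HFLF. A RefSeq sequence was found for 1675 of the 1966 names and 368 of the tested ones. The pair miR-743a-3p and miR-743b-3p (seed AAAGACA) averaged 1.35 ± 0.94 CPM in HFLF and 3.84 ± 1.71 CPM in LF, a log2 fold change of -1.51 ± 0.59.

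The balance of the 5p and 3p arms within a hairpin does not depend on library scaling, and here the groups lay apart for a few hairpins. Of 80 hairpins with at least 10 counts of each arm in every library, limma called 0 (smallest adjusted p 0.139) and counted 5 (6.25%) at an unadjusted p under 0.05. In 4 of the 80 (5%) the groups did not overlap: let-7e, miR-28a, miR-30e and miR-361. The log2 ratio of let-7e-5p to let-7e-3p was 8.09, 7.79, 7.83, 7.54, 7.73 and 7.59 in HFLF livers, against 9.73, 8.65, 9.24, 8.32 and 8.18 in LF livers. The 5p strand therefore outnumbered the 3p strand less in every HFLF liver than in any LF liver. The difference was -1.06 ± 0.26 on the log2 scale (limma adjusted p = 0.139). The 3p strand is scarce, with 37 to 95 counts per library in HFLF and 16 to 79 in LF, and the highest LF ratio belonged to the library with 16. With 1 library left out in turn the difference ran from -1.22 to -0.83. It was -1.22 without LF replicate 6, with an adjusted p of 0.0484, the 1 call among all libraries left out in turn.

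The ratio of miR-28a was higher in HFLF, at 1.63 ± 0.18 in HFLF and 1.22 ± 0.08 in LF (log2 ratio, SD, n = 6 and 5), a difference of 0.41 ± 0.12 (limma adjusted p = 0.228). The 3p strand of this hairpin, miR-28a-3p, averaged 149 ± 18.3 CPM in HFLF and 165 ± 15.5 CPM in LF. The ratio of miR-30e was lower in HFLF, at 4.13 ± 0.08 in HFLF and 4.40 ± 0.13 in LF, a difference of -0.28 ± 0.11 (limma adjusted p = 0.606).

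**Figure D4:**
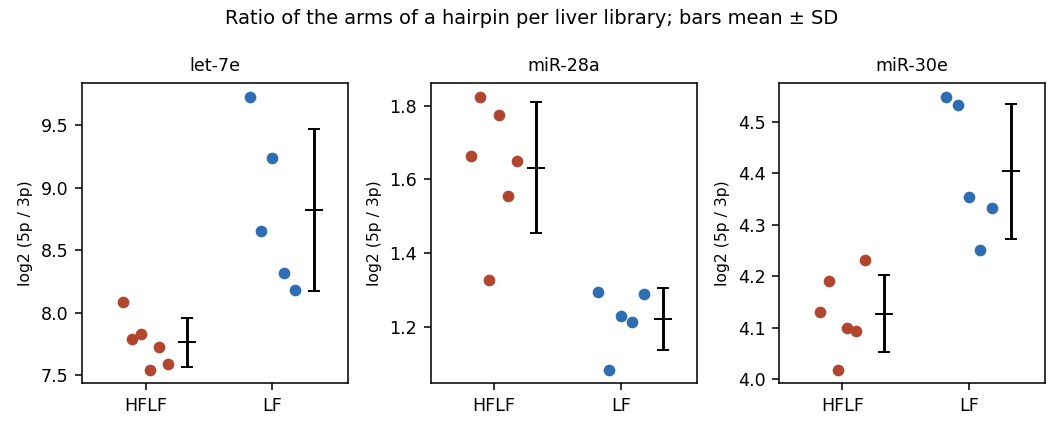
Log2 ratio of the 5p to the 3p arm of let-7e, miR-28a and miR-30e in each HFLF and LF liver library; points are libraries and bars the mean ± SD (n = 6 HFLF, 5 LF). The axes do not start at 0, and the groups do not overlap in any of the 3 panels.

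The 5 retained livers of the HF group (diet tag HFD) were read beside HFLF and LF in one fit of the 16 retained liver libraries. The contrasts HFLF over LF and HF over LF share the LF livers, so their values are set side by side only. miR-107-3p had a log2 fold change of 0.34 ± 0.10 for HFLF over LF and 0.14 ± 0.11 for HF over LF, with 347 ± 24.4 CPM in HF. miR-30e-3p had 0.33 ± 0.10 for HFLF over LF and 0.16 ± 0.11 for HF over LF. miR-99b-5p had -0.34 ± 0.12 for HFLF over LF and -0.24 ± 0.13 for HF over LF, and miR-1a-3p had -1.01 ± 0.34 for HFLF over LF and -1.07 ± 0.36 for HF over LF. Tested against HF directly, edgeR called 0 of 488 miRNAs (0%) in HFLF at an adjusted p under 0.05 and counted 12 (2.46%) at an unadjusted p under 0.05. None of the 20 leading miRNAs was among those 12, the lowest unadjusted p being 0.0578 for miR-107-3p.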

How the data were processed

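Small RNA libraries were made from liver total RNA extracted with TRI reagent (1 ug per library, NEXTFLEX Small RNA-seq kit v3), per the labels' protocols. The submitters' processing notes name cutadapt, Bowtie and the build GRCm38.p6, and the sources used here give no versions or settings. The count table that the authors deposited has 2118 lines, each a mature miRNA with a precursor, for 1966 mature names, and 1 line per name was kept, the one with the highest total. For 51 of the 87 names with several lines these were identical, and 13.7% to 14.9% of a column lay outside the lines kept. The deposited CPM columns were not used; CPM here are counts scaled to TMM library sizes. The authors also deposited log2 values of a subset of miRNAs in 16 liver libraries, used as an alternative with limma.

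Counts of the 11 libraries were tested with edgeR 4.0.16 (R 4.3.3; TMM, filterByExpr with a minimum count of 10 and total of 15, robust quasi-likelihood F test, Benjamini-Hochberg adjusted p under 0.05), with DESeq2 1.42.0 and limma-voom (limma 3.58.1) as alternatives. The interval of a fold change is the 95% interval of the fit. Counts summed over miRNAs sharing bases 2 to 8 were tested in the same way. Arm ratios were log2((5p + 0.5)/(3p + 0.5)) in limma, with at least 10 counts of each arm in every library. Single values were compared by 2-sided exact permutation tests over 462 assignments, with a smallest possible p of 0.00216.

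Named miRNAs are the 10 with the smallest p in each direction, the 15 most abundant, every let-7 5p arm, the abundant members of each list, and the seed families and hairpins with the smallest p. The members and lists were chosen with earlier results of these data known. Alternatives were other scalings and filters, other tools, all lines summed, miR-122-5p left out of the scaling, LF replicate 4 added, the HF livers in the fit, each replicate left out, and a replicate block.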

Additional observations from a re-analysis of the deposited data

Results flagged for a closer look

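In 10 of the 140 groups of values checked, 1 library lay farther from the others than Dixon's 95% value allows, and chance gives about 1 in 20. Of these, 4 were in HFLF livers. miR-10b-5p measured 20.3 CPM in HFLF replicate 1 and 6.95 to 10.5 CPM in the other HFLF livers. miR-543-3p measured 3.33 CPM in HFLF replicate 2, against at most 1.17 CPM in the others. miR-192-5p measured 24844 CPM in HFLF replicate 6 and 21297 to 22516 CPM in the others. miR-144-5p measured 133.4 CPM in HFLF replicate 4 and 64.2 to 88.6 CPM in the others.

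The other 6 were in LF livers. LF replicate 1 was apart for miR-222-3p, at 438 CPM against 204 to 245 CPM in the other LF livers, and for miR-148a-3p, at 11585 CPM against 8614 to 9278 CPM. LF replicate 6 was apart for miR-1247-5p, at 16.1 CPM against 3.90 to 6.55 CPM, and for miR-103-3p, at 2477 CPM against 2312 to 2336 CPM. LF replicate 5 had 159 CPM of miR-223-3p, against 89.0 to 106.9 CPM, and LF replicate 2 had 6593 CPM of miR-92a-3p, against 5135 to 5504 CPM. No cause of these values was tested.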

How the results depend on the processing

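No setting gave a miRNA called between HFLF and LF. Seed families were refitted only with a replicate block, with total counts alone, with no filter beyond 1 count and with 1 library left out. None was called in these settings. The number of miRNAs under an unadjusted p of 0.05 was 163 of 987 with no filter beyond 1 count (smallest adjusted p 0.0514), 17 of 413 with LF replicate 4 and 12 in the authors' log2 table. It was 18 to 43 with 1 library left out, and the arm ratios called were then 0 to 1. The number of miRNAs with a count differed by 37 with LF replicate 4, in place of -9.37, and by -19 to -1.20 with 1 library left out. The difference in total count was -145748 to 1945294 with 1 library left out. The cause was not tested, except that the filter and the authors' table changed the number of miRNAs tested.

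Of 64 named miRNAs, 52 were tested in all 23 settings and 41 of these kept their direction, and the 12 tested in fewer settings kept theirs where tested. The fold change of 31 moved by over 1.5 times with some library left out. With LF replicate 4 the log2 fold change was -0.0178 for miR-107-3p, 0.057 for miR-100-5p, 0.062 for miR-92a-3p, -0.072 for miR-29a-3p, -0.38 for miR-29c-3p, -0.12 for miR-29b-3p and -0.34 for miR-122-3p. With total counts alone it was 0.047 for let-7g-5p and 0.016 for miR-221-3p, and that of let-7g-5p was 0.00303 in the authors' log2 table. With 1 library left out it ran from -0.24 to 0.041 for let-7b-5p, from -0.068 to 0.0079 for let-7g-5p, from -0.12 to 0.0044 for miR-221-3p and from -0.0086 to 0.098 for miR-30e-5p. A replicate block left 0 called (smallest adjusted p 0.306) and 28 at an unadjusted p under 0.05. Same-numbered libraries correlated at -0.02, -0.07, 0.15, 0.17 and 0.04 in their deviations from the group means, so the numbers were not taken to pair the samples, and not every library correlated best with its own number.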
